A study of Mus musculus with 8 samples.

Results

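The genes of polyamine synthesis and its control were followed in primary mouse CD4+ T cells on 8 Affymetrix expression arrays. The set was fixed by name: Odc1, Amd1, Srm, Sms, Sat1, Smox, Oaz1, Oaz2 and Azin1. A gene entered where the platform annotation gave it a probe set with no other symbol, and its brightest probe set, by the mean of the 8 arrays, stood for it. Of the 9 listed genes 7 entered, of 18193 genes in all, and all 7 were among the 13983 genes tested. No probe set carried Amd1 as its symbol in that annotation, and the 3 probe sets of Sms were also assigned to its pseudogene Sms-ps, so neither gene was analysed here. In the RefSeq annotation of the mouse build GRCm38.p6, Odc1 lies at chr12:17544808-17551502, Srm at chr4:148591513-148594619, Sat1 at chrX:155213126-155216449 and Smox at chr2:131491858-131525183. Oaz1 lies at chr10:80826656-80829290, Oaz2 at chr9:65676548-65690300 and Azin1 at chr15:38487430-38519294.

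All cells came from BALB/c mice. Stimulated cells were cultured for 1 h with plate-bound antibody to CD3 and soluble antibody to CD28, which engage the T cell receptor complex and a costimulatory receptor, and the other cells were cultured without them. Every culture then received either 4 µM dorsomorphin or DMSO alone and was kept for another 6 h. The groups were stimulated cells with dorsomorphin, stimulated cells, cells with dorsomorphin and no stimulation, and control cells, with 2 arrays each. Dorsomorphin blocks the type I receptor kinases of bone morphogenetic protein signalling and also the energy-sensing kinase AMPK, and 1 dose of it was used. Whether replicates were separate mice or separate cultures is not given in the labels, so a p-value speaks of the spread among arrays alone, possibly technical in origin.

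Polyamines (putrescine, spermidine and spermine) are small positively charged molecules that bind RNA, DNA and ribosomes and that dividing cells need. Ornithine decarboxylase, encoded by Odc1, makes putrescine and is the rate-limiting enzyme, and spermidine synthase, encoded by Srm, turns putrescine into spermidine. Spermidine/spermine acetyltransferase (Sat1) and spermine oxidase (Smox) run the pathway backwards. Antizymes (Oaz1, Oaz2) bind ornithine decarboxylase, send it to the proteasome and limit polyamine uptake, and their protein is made through a ribosomal frameshift that polyamines promote. Antizyme inhibitor (Azin1) is a relative of ornithine decarboxylase without its activity that binds antizyme and so frees the enzyme. Much of this control acts on protein, which the arrays did not measure.

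Promoter windows of 250 bases before to 50 after the transcription start are given for 3 genes that behaved differently on the arrays: Odc1, whose signal was highest in stimulated cells, Oaz2, whose signal was lowest there, and Oaz1, whose 4 group means lay close together. They come from RefSeq in the mouse build GRCm38.p6 and are written 5′ to 3′ on the gene's own strand, the plus strand for all 3, with the GC box (GGGCGG or its complement CCGCCC) in capitals. The windows are chr12:17544623-17544922 for Odc1, chr9:65676298-65676597 for Oaz2 and chr10:80826406-80826705 for Oaz1. Those of Oaz2 and Oaz1 are set at the first base of the gene span given above, and that of Odc1 at a transcript start farther inside it.
Odc1: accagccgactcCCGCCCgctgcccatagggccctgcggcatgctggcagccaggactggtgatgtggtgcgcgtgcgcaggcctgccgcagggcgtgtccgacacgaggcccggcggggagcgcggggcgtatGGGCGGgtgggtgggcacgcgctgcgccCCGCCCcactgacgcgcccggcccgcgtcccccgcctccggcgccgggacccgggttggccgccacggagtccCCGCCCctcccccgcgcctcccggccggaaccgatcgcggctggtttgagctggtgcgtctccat
Oaz2: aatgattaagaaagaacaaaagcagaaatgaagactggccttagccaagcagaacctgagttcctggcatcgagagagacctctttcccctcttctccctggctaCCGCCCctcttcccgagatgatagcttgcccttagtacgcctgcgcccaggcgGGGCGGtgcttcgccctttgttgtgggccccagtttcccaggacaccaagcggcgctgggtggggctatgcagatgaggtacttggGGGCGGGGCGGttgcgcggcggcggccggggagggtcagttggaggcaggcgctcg
Oaz1: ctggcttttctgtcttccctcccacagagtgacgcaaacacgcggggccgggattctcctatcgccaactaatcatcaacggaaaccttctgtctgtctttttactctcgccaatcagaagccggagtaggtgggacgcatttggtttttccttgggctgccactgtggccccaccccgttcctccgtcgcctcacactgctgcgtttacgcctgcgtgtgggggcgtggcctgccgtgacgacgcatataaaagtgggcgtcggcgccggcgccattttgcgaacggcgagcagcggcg
The windows of Odc1 and Oaz2, whose signals moved in opposite directions, each held 4 GC boxes, 2 of which overlap by 1 base in Oaz2, and that of Oaz1 held 0. The windows of Smox, Sat1 and Amd1 held 6, 2 and 1, and the 2 windows of Sms held 4 and 0. Of all 32851 promoter windows of this length, 35.7% held at least 1 GC box on either strand. The E-box CACGTG, which reads the same on both strands, was in 0 of the windows of Odc1, Oaz1, Oaz2, Sat1, Smox and Amd1, in 1 of the 2 windows of Sms, and in 7.15% of all windows. Windows for Srm and Azin1 were not used here.

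The authors deposited 1 linear intensity per probe set and array, and values are given below as log2 signal. Median intensities ranged from 45.4 to 74.5 over the arrays. CD4+ T cell markers (Cd4, Cd3d, Cd3e, Cd3g and Cd28, 5 of 6 listed) were measured on every array at a log2 signal of 7.97 or more, against a working floor of 5.22, the 40th percentile of all values. Marker levels differed between the groups. The summed intensity of those 5 markers was 27377 to 28765 in stimulated cells with dorsomorphin, 32505 to 34184 in stimulated cells, 19979 to 27305 in dorsomorphin-treated cells and 55819 to 56205 in control cells. The sum over 6 of 6 myeloid markers was 887 to 1233 in stimulated cells with dorsomorphin, 681 to 1092 in stimulated cells, 1169 to 1260 in dorsomorphin-treated cells and 2519 to 3584 in control cells, and the defining marker Itgam was under the floor on both arrays of each group with dorsomorphin. For 4 of 5 B cell markers it was 279 to 285 in stimulated cells with dorsomorphin, 162 to 219 in stimulated cells, 163 to 205 in dorsomorphin-treated cells and 378 to 447 in control cells, and Cd79a was under the floor on both arrays of every group but the control. For 2 of 3 natural killer cell markers it was 230 to 411 in stimulated cells with dorsomorphin, 43.7 to 111 in stimulated cells, 205 to 339 in dorsomorphin-treated cells and 988 to 1234 in control cells, and Ncr1 was under the floor on both arrays of dorsomorphin-treated cells. The 2 CD8 T cell markers gave 176 to 281 in stimulated cells with dorsomorphin, 196 to 290 in stimulated cells, 160 to 316 in dorsomorphin-treated cells and 347 to 487 in control cells. Of 3 erythroid markers 2 gave 62.6 to 380 in stimulated cells with dorsomorphin, 65.4 to 148 in stimulated cells, 93.3 to 543 in dorsomorphin-treated cells and 68.8 to 569 in control cells, and Hba-a1 was under the floor on both arrays of stimulated cells with dorsomorphin. The control cells thus had the highest summed level of CD4, CD8, B, myeloid and natural killer markers, with no overlap with the other groups. The brightest markers carry these sums, and several markers did not follow them. Cd8a was at 60.1 and 54.3 in control cells, against 112 and 72.0 in dorsomorphin-treated cells and 109 and 80.2 in stimulated cells. Cd28 was at 13565 and 14101 in stimulated cells with dorsomorphin, against 12485 and 13178 in control cells. Ms4a1 in stimulated cells overlapped the control. The actin control probe sets, a sign of RNA quality, had a 3′ minus 5′ log2 signal of 0.33 on both stimulated arrays and of 0.47 to 0.80 on the other 6, and the same difference for Gapdh was -0.59 to -0.18 over all 8 without setting the stimulated arrays apart. The part of these shifts in the results below was not tested.

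The first comparison asked how stimulation changes polyamine genes in the absence of the inhibitor. Srm rose 22.0-fold, Odc1 5.45-fold and Azin1 2.26-fold, and Oaz2 fell by 1.44 on the log2 scale, while Sat1, Smox and Oaz1 did not pass the test. That is 4 of 7 genes called, with 23.4% of all tested genes called, made up of 3 of 7 genes higher, with 8.98% of all tested genes higher, and 1 of 7 lower, with 14.4% of all tested genes lower (limma, adjusted p under 0.05 over all 13983 genes). The median log2 fold of the 7 genes was 0.01 and that of all tested genes -0.27. A fold from whole cultures cannot tell fewer cells of a type from less RNA per cell. Where arrays are said below to be separate or not to overlap, the share over all tested genes was not counted. With 2 arrays per group such separation alone is weak evidence.

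Of the enzymes that build polyamines, Odc1 had a log2 signal of 13.88 and 14.17 in stimulated cells, against 11.67 and 11.49 in control cells. Both stimulated arrays lay far above both control arrays, and the log2 fold was 2.45 ± 0.23 (SE, n = 2 per group, limma adjusted p = 0.00851). Srm had 13.69 and 14.05 in stimulated cells, against 9.33 and 9.50 in control cells. Its log2 fold of 4.46 ± 0.38 (limma adjusted p = 0.00784) was the largest of the 7 genes, and 0.300% of all tested genes had a higher fold, against 2.41% for Odc1 and 11.7% for Azin1.

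The genes of the backward steps gave no call. Sat1 had 12.36 and 12.07 in stimulated cells, against 12.76 and 12.83 in control cells. The arrays did not overlap, with a log2 fold of -0.58 and a 95% interval of -1.38 to 0.23 (limma adjusted p = 0.256). Smox had 9.18 and 8.64 in stimulated cells, against 9.11 and 9.30 in control cells. These arrays overlapped, and the interval of the log2 fold ran from -0.95 to 0.35.

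The genes that govern ornithine decarboxylase protein did not move together. Azin1 had 11.78 and 11.76 in stimulated cells, against 10.62 and 10.57 in control cells, a log2 fold of 1.17 ± 0.21 (limma adjusted p = 0.0175). Oaz2 had 9.40 and 9.06 in stimulated cells, against 10.67 and 10.67 in control cells, with a log2 fold of -1.44 ± 0.25 (limma adjusted p = 0.0166). For both genes the groups were fully separate. Oaz1, the main antizyme gene of most tissues, had 14.53 and 14.53 in stimulated cells, against 14.48 and 14.56 in control cells. Its stimulated arrays lay between its control arrays, and the 95% interval of the log2 fold, -0.52 to 0.53, reaches a level 1.45-fold higher.

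Relative to the median of all tested genes the log2 folds were 4.74 for Srm, 2.72 for Odc1, 1.45 for Azin1 and -1.17 for Oaz2, and median centring of the arrays moved that median from -0.27 to 0.10 without ending a call. Without control replicate 1 or 2, 0 of the 7 genes and 0 of all genes passed limma's threshold (Odc1 adjusted p = 0.0641 and 0.0784, log2 fold 2.54 and 2.36, with 3794 and 3813 genes at an unadjusted p under 0.05), and without stimulated replicate 2 Oaz2 and Azin1 did not pass (limma adjusted p = 0.0745 and 0.0694). Averaging the probe sets of a gene ended the call of Oaz2 (log2 fold -1.05, limma adjusted p = 0.0593).

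**Figure D1:**
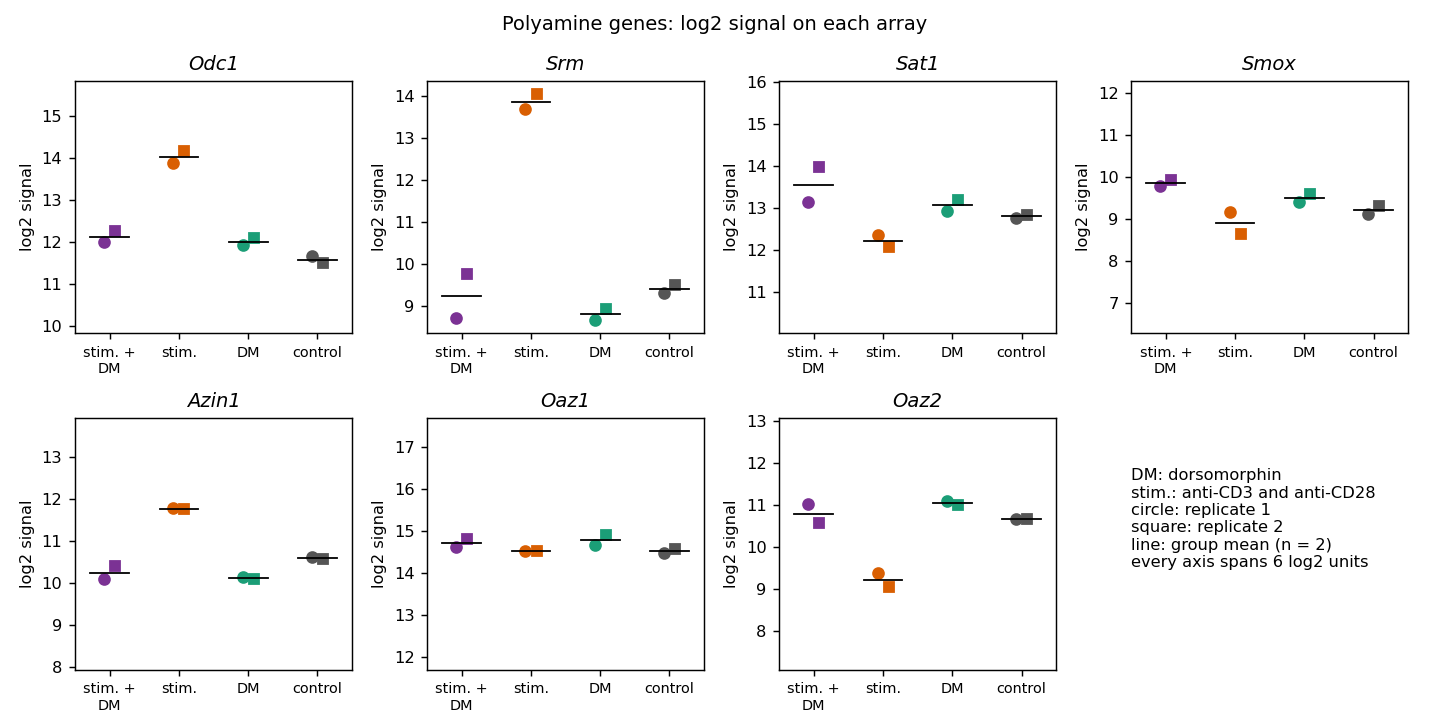
Log2 signal of the 7 polyamine genes on each array, by group, with replicate 1 as a circle, replicate 2 as a square and a line at the mean of 2 arrays; every vertical axis spans 6 log2 units. Odc1, Srm and Azin1 are highest on both stimulated arrays and Oaz2 is lowest there, while the group means of Oaz1 stay between 14.52 and 14.78.

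Dorsomorphin was next examined in stimulated cells. Srm fell by 4.63, Odc1 by 1.90 and Azin1 by 1.52 on the log2 scale, and Oaz2 rose 2.97-fold and Sat1 2.53-fold. Of the 7 genes 5 were called, with 22.1% of all tested genes called. Thus 3 of 7 genes were lower, with 12.4% of all tested genes lower, and 2 of 7 were higher, with 9.71% of all tested genes higher. The median log2 fold of the 7 genes was 0.19, beside 0.07 for all tested genes. The stimulated arrays enter both comparisons, so the opposite signs in the first and the second are not separate observations.

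Odc1 had a log2 signal of 12.00 and 12.25 in stimulated cells with dorsomorphin, against 13.88 and 14.17 in stimulated cells, a log2 fold of -1.90 ± 0.23 (SE, n = 2 per group, limma adjusted p = 0.00730). Srm had 8.72 and 9.76 in stimulated cells with dorsomorphin, against 13.69 and 14.05 in stimulated cells, a log2 fold of -4.63 ± 0.38 (limma adjusted p = 0.00576). For both synthetic enzymes the groups were fully separate, although the 2 arrays with dorsomorphin differed by about a log2 unit for Srm. Of all tested genes 0.350% had a lower fold than Srm and 7.05% a lower fold than Odc1.

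Both genes of the backward steps were higher on each array with dorsomorphin. Sat1 had 13.14 and 13.97 in stimulated cells with dorsomorphin, against 12.36 and 12.07 in stimulated cells, a log2 fold of 1.34 ± 0.33 (limma adjusted p = 0.0368). Smox had 9.78 and 9.93 in stimulated cells with dorsomorphin, against 9.18 and 8.64 in stimulated cells. Its log2 fold of 0.95 ± 0.26 just missed the threshold (limma adjusted p = 0.0522, range over the alternatives 0.0180 to 0.264, passing in 4 of them).

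Azin1 had 10.10 and 10.40 in stimulated cells with dorsomorphin, against 11.78 and 11.76 in stimulated cells, a log2 fold of -1.52 ± 0.21 (limma adjusted p = 0.00887). Oaz2 had 11.03 and 10.58 in stimulated cells with dorsomorphin, against 9.40 and 9.06 in stimulated cells, a log2 fold of 1.57 ± 0.25 (limma adjusted p = 0.0123). On these probe sets the antizyme inhibitor gene was lower and this antizyme gene higher, each without overlap, but other probe sets of both genes gave no call, and averaging the probe sets of a gene ended both calls (Azin1 -0.54, limma adjusted p = 0.147, and Oaz2 1.09, 0.0539). Oaz1 had 14.63 and 14.81 in stimulated cells with dorsomorphin, against 14.53 and 14.53 in stimulated cells, a log2 fold of 0.19 (interval -0.34 to 0.71) that did not pass and became -0.07 with median centring.

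The call of Sat1 was lost without 7 of the 8 arrays in turn, all but replicate 1 of stimulated cells with dorsomorphin (highest adjusted p = 0.145, lowest log2 fold 0.92 without replicate 2 of that group), after median centring (adjusted p = 0.145) and with no filter (0.0666). Oaz2 did not pass without stimulated replicate 2 or without replicate 1 of stimulated cells with dorsomorphin (adjusted p = 0.0573 and 0.0575), and a fit of only the 4 arrays of both groups passed 0 of 7 genes and 0 of all genes, with 4040 at an unadjusted p under 0.05 (Srm adjusted p = 0.0605, Odc1 0.0644).

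**Figure D2:**
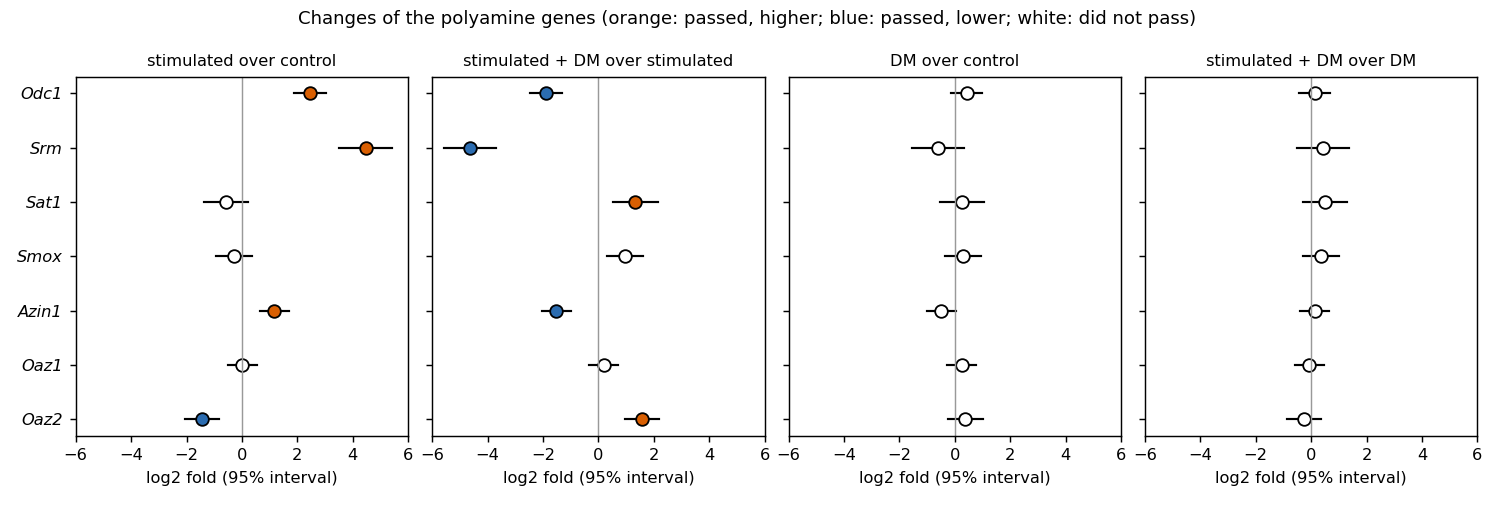
Log2 folds of the 7 genes with limma's 95% intervals in 4 comparisons, each on an axis from -6 to 6; filled points passed the adjusted threshold of 0.05 and white points did not. The 4 genes that passed with stimulation are on the other side of 0 when dorsomorphin is added to stimulated cells, and every point is white where dorsomorphin-treated cells are compared with control cells and where stimulated cells with dorsomorphin are compared with dorsomorphin-treated cells.

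**Figure D3:**
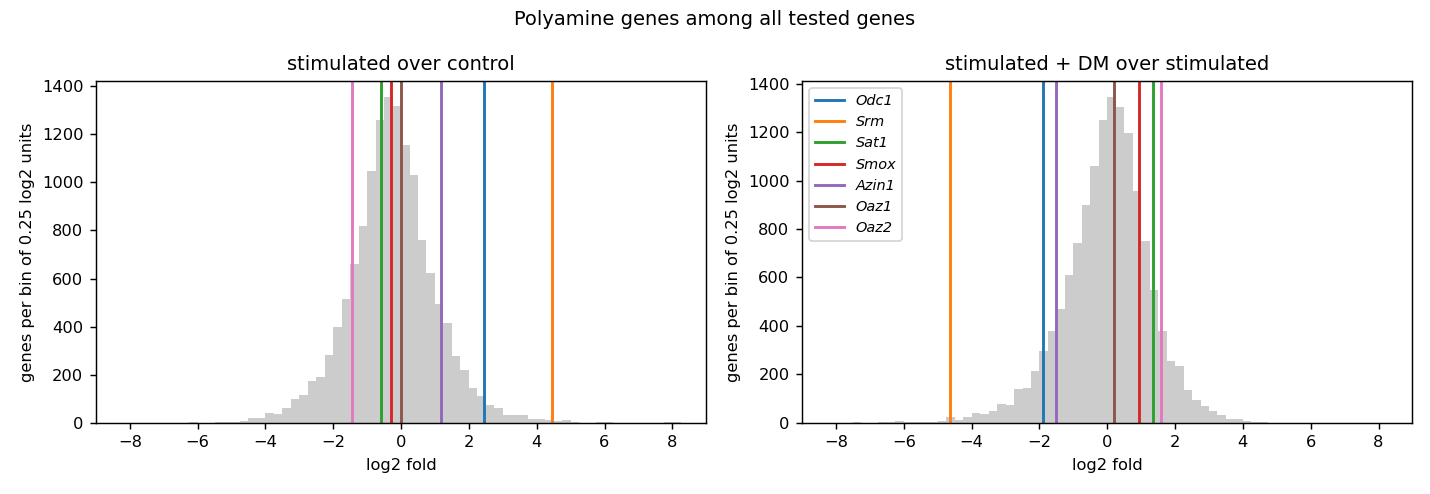
Histograms of the log2 folds of all 13983 tested genes (bins of 0.25 log2 units) for stimulated over control cells and for stimulated cells with dorsomorphin over stimulated cells, with a vertical line for each polyamine gene. Srm lies in the far tail of both, at 4.46 and -4.63, and Oaz1 lies near the middle of both, at 0.01 and 0.19.

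In unstimulated cells dorsomorphin gave no call: 0 of 7 genes were higher, with 1.92% of all tested genes higher, and 0 of 7 were lower, with 11.1% of all tested genes lower (limma), 13.1% in either direction together. At an unadjusted p under 0.05, 4389 of all genes and 0 of the 7 passed. The median log2 fold of the 7 genes was 0.27, beside -0.24 for all tested genes, a median that moved to -0.01 with median centring.

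Odc1 had a log2 signal of 11.93 and 12.08 in dorsomorphin-treated cells, against 11.67 and 11.49 in control cells. The dorsomorphin arrays were the higher ones, but the log2 fold of 0.43 had an interval of -0.15 to 1.00. Srm had 8.68 and 8.94 in dorsomorphin-treated cells, against 9.33 and 9.50 in control cells, and its log2 fold of -0.60 had an interval of -1.55 to 0.34. Azin1 had 10.14 and 10.09 in dorsomorphin-treated cells, against 10.62 and 10.57 in control cells, with a log2 fold of -0.48 (limma adjusted p = 0.186). All 3 intervals included 0. The arrays of these 3 genes, as of the remaining genes below, did not overlap. The share of all tested genes without overlap was not counted, so no shift of the set can be read from this.

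The remaining genes were all slightly brighter with dorsomorphin. Sat1 had 12.94 and 13.18 in dorsomorphin-treated cells, against 12.76 and 12.83 in control cells. Smox had 9.41 and 9.59 in dorsomorphin-treated cells, against 9.11 and 9.30 in control cells. Oaz1 had 14.66 and 14.91 in dorsomorphin-treated cells, against 14.48 and 14.56 in control cells, with a log2 fold of 0.26 that turned to -0.10 with cyclic loess. Oaz2 had 11.10 and 11.01 in dorsomorphin-treated cells, against 10.67 and 10.67 in control cells, and the intervals of these 4 log2 folds ran from -0.54 at the lowest to 1.07 at the highest, both for Sat1.

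With dorsomorphin in both groups, stimulation gave no call. None of the 7 genes passed when stimulated cells with dorsomorphin were compared with dorsomorphin-treated cells, nor did any of the 13983 genes (0% called by limma, with 539 at an unadjusted p under 0.05). The log2 fold of Odc1 was 0.12 (interval -0.45 to 0.69), that of Srm 0.43 (-0.51 to 1.38) and that of Azin1 0.13 (-0.39 to 0.65). Oaz2 had a log2 fold of -0.25 (-0.88 to 0.37), that of Sat1 was 0.49 (-0.31 to 1.30), that of Smox 0.36 (-0.29 to 1.00) and that of Oaz1 -0.06. Leaving out 1 array turned the sign for Odc1, Srm, Oaz1 and Azin1, so these folds have no settled direction.

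Against control cells, stimulated cells with dorsomorphin also had 0 of 7 genes past the threshold, with 7.22% of all tested genes called in either direction, 0.915% higher and 6.31% lower. The log2 folds were 0.55 for Odc1 (interval -0.02 to 1.12), -0.17 for Srm (-1.12 to 0.77), -0.35 for Azin1 (-0.87 to 0.17) and 0.13 for Oaz2 (-0.49 to 0.75). Sat1 at 0.76 and Smox at 0.65 were higher on both arrays than on both control arrays and did not pass (limma adjusted p = 0.211 and 0.189). In order of mean log2 signal, Odc1 ran from stimulated cells (14.03) through stimulated cells with dorsomorphin (12.13) and dorsomorphin-treated cells (12.01) to control cells (11.58). The arrays of the 2 dorsomorphin groups overlapped for Odc1, Srm, Sat1, Oaz1, Oaz2 and Azin1, and not for Smox. The share of all tested genes that overlapped was not counted, so the overlap cannot be called particular to these genes.

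Whether the effect of dorsomorphin differed with stimulation was tested as an interaction, which is also the test of whether stimulation acted differently with and without dorsomorphin. It passed for 0 of the 7 genes, with 0.0858% of all tested genes called, 0.0358% with a positive and 0.0501% with a negative difference (3687 genes had an unadjusted p under 0.05). The difference of log2 folds was -4.03 ± 0.54 for Srm (limma adjusted p = 0.0546), -2.33 ± 0.33 for Odc1 (0.0564), -1.04 ± 0.30 for Azin1 (0.106) and 1.19 ± 0.36 for Oaz2 (0.114), and the 95% intervals of all 4 excluded 0. Sat1, Smox and Oaz1 had differences of 1.07, 0.66 and -0.07 with intervals that included 0. Srm and Odc1 passed with quantile normalization (both limma adjusted p = 0.0410), where 406 of all 13943 tested genes passed. They also passed with log2(value + 16) (0.0224 and 0.0258), where 910 of 13983 did. Srm, Odc1, Azin1 and Oaz2 all passed with the 60th percentile filter and when the fit was robust with a trend in the variance. Calls over all genes rose as well, to 1867 of 9640 tested genes with that filter and 2036 of 13983 with that fit. With median centring, cyclic loess, no filter, averaged probe sets or the replicate number as a block, 0 of the 7 genes passed. Of all tested genes 0, 47, 0, 3 and 0 passed in these settings. With 1 array left out in turn, the difference ran from -4.55 to -3.51 for Srm and from -2.47 to -2.18 for Odc1.

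Other probe sets of the same gene gave a check where the annotation had them. For Odc1 the probe set used, 1437711_x_at, belongs to a class whose probes can match other sequences. The other 2 did as it did: 1438761_a_at had a log2 fold of 2.98 for stimulation and -2.38 for dorsomorphin in stimulated cells, and 1427364_a_at had 2.32 and -2.11, all past the threshold when each probe set was fitted separately. The 3 probe sets of Azin1 did not do the same. With dorsomorphin in stimulated cells, 1450714_at, the one used, fell by 1.52, while 1422702_at had a log2 fold of -0.13 (limma adjusted p = 0.768) and 1430984_at of 0.03 (0.954).

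The disagreement over Azin1 was as clear in unstimulated cells. The probe set 1422702_at had a log2 signal of 10.41 and 10.71 in dorsomorphin-treated cells, against 9.78 and 9.52 in control cells, a log2 fold of 0.91, where the probe set used had -0.48. Neither passed (limma adjusted p = 0.0932 and 0.254 with each probe set fitted separately). The annotation lists both under the same target sequence, and the sign of Azin1 with dorsomorphin in unstimulated cells depended on which was read. With stimulation all 3 probe sets of Azin1 were higher, at 1.17, 0.93 and 0.85, and only the one used passed (limma adjusted p = 0.0314).

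For Oaz2, 1426764_at had log2 folds of -1.57 with stimulation and 1.57 with dorsomorphin in stimulated cells (limma adjusted p = 0.0593 and 0.0536), close to those of the probe set used. The dimmer 1442541_at had -0.15 and 0.13 and passed in neither. The second probe set of Smox averaged a log2 signal of 4.71, under the floor, and swung from 1.43 to 4.88 within the stimulated group. Srm, Sat1 and Oaz1 had 1 probe set with no other symbol.

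**Figure D4:**
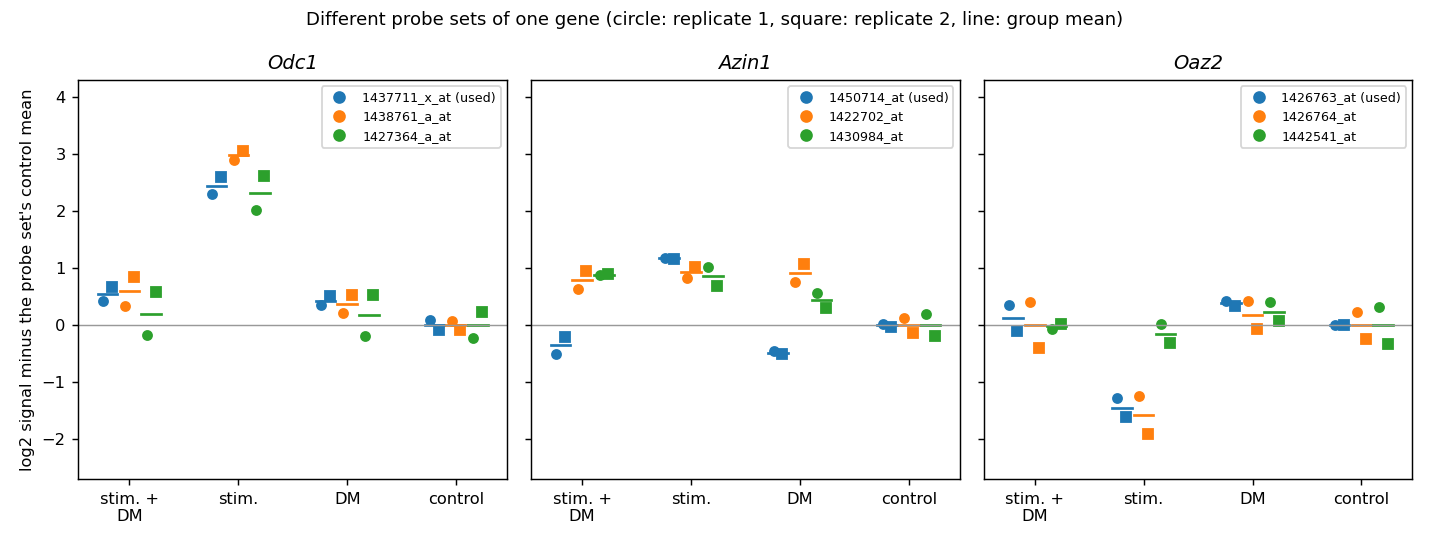
Log2 signal of each single-symbol probe set of Odc1, Azin1 and Oaz2, minus that probe set's mean on the control arrays, by group (circle, replicate 1; square, replicate 2; line, mean of 2 arrays). The 3 probe sets of Odc1 move together, whereas in both dorsomorphin groups the Azin1 probe set used lies below 0 and the other 2 lie above it.

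A difference of log2 signals between 2 genes on the same array is free of any scaling of that array, and it shows unequal change without showing which gene moved. Set to 0 at the control mean, Odc1 minus Oaz1, the enzyme against its main antizyme, was 0.32 and 0.39 in stimulated cells with dorsomorphin, 2.29 and 2.58 in stimulated cells, 0.21 and 0.12 in dorsomorphin-treated cells, and 0.13 and -0.13 in control cells. The stimulated arrays stood far above the other 6, which lay close together. Odc1 minus Sat1, the first step of synthesis against acetylation, was 0.08 and -0.50 in stimulated cells with dorsomorphin, 2.73 and 3.32 in stimulated cells, 0.21 and 0.12 in dorsomorphin-treated cells, and 0.13 and -0.13 in control cells.

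Among the regulators, Azin1 minus Oaz1 was -0.60 and -0.49 in stimulated cells with dorsomorphin, 1.18 and 1.16 in stimulated cells, -0.59 and -0.89 in dorsomorphin-treated cells, and 0.07 and -0.07 in control cells. Here both dorsomorphin groups lay below the control arrays on the probe set used for Azin1. Oaz2 minus Oaz1, a comparison of 2 antizyme genes, was 0.25 and -0.38 in stimulated cells with dorsomorphin, -1.28 and -1.62 in stimulated cells, 0.30 and -0.05 in dorsomorphin-treated cells, and 0.04 and -0.04 in control cells. On both stimulated arrays this difference lay below its value on each of the other 6. With 2 arrays against 2, no test of these single values was run.

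**Figure D5:**
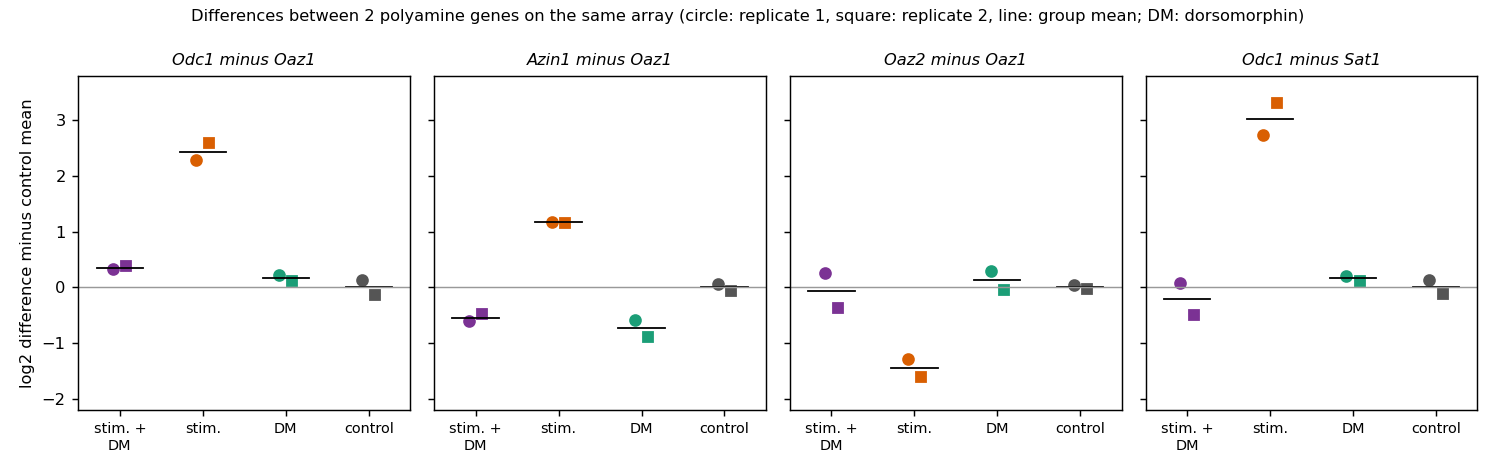
Log2 signal of one polyamine gene minus that of another on the same array, set to 0 at the mean of the control arrays, by group (circle, replicate 1; square, replicate 2; line, mean of 2 arrays). Odc1 minus Oaz1 lies at 2.29 and 2.58 on the stimulated arrays and between -0.13 and 0.39 on the other 6, and Oaz2 minus Oaz1 is lowest on the stimulated arrays.

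Genes next to the pathway were taken from 4 named lists. The percentage in brackets after a count is the share of all tested genes called the same way. In the methionine cycle and salvage, which supply the aminopropyl donor and recycle its by-product, 2 of 8 tested genes rose (8.98% of all tested genes) and 1 fell (14.4% of all) with stimulation, with a median log2 fold of 0.42 beside -0.27 for all tested genes. Mtap, the enzyme that clears methylthioadenosine left over from spermidine and spermine synthesis, rose by 1.78 ± 0.29 (limma adjusted p = 0.0142). Enoph1, a later step of the same salvage route, rose by 1.25, and Mat2b, the regulatory subunit of methionine adenosyltransferase, fell by 1.10. With dorsomorphin in stimulated cells 4 of the 8 fell (12.4% of all tested genes) and 1 rose (9.71% of all), with a median log2 fold of -1.09 beside 0.07 for all tested genes. Enoph1 fell by 1.89, Mri1, another salvage enzyme, by 1.69 and Mtap by 1.49, and Mat2b rose by 1.64. Methionine synthase, encoded by Mtr, fell in both comparisons of dorsomorphin, by 1.18 in stimulated cells and by 1.73 in unstimulated cells. In unstimulated cells it was the 1 of 8 tested genes of the list that was called (11.1% of all tested genes lower). Mat2a was not analysed here.

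Of the hypusine pathway, in which spermidine is used to modify the translation factor eIF5A, 2 of 4 tested genes rose with stimulation (8.98% of all tested genes). Eif5a itself rose by 0.88 (limma adjusted p = 0.0473) and Dohh, the hydroxylase that completes hypusine, by 1.13 (0.0296). In stimulated cells dorsomorphin gave 0 of 4 calls (22.1% of all tested genes), with a median log2 fold of -0.53 beside 0.07 for all tested genes, and in unstimulated cells also 0 of 4 (13.1% of all). Eif5a had a log2 signal of 14.25 and 14.63 in stimulated cells with dorsomorphin, against 15.00 and 15.07 in stimulated cells.

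Of the genes that supply ornithine and arginine, 0 of 7 tested passed with stimulation (23.4% of all tested genes). With dorsomorphin 2 of 7 fell in stimulated cells (12.4% of all) and 2 of 7 in unstimulated cells (11.1% of all). They were Aldh18a1, which makes the precursor of proline and ornithine from glutamate (-1.78 in stimulated and -1.39 in unstimulated cells), and Asl, the lyase that makes arginine (-1.56 and -2.60). Arg1 and Arg2, the arginases that make ornithine, did not pass in these comparisons, and their mean log2 signals of 4.05 and 5.76 lay near or under the floor. Agmat was below the filter. Of the other catabolic, antizyme-family and transport genes, 1 of 6 tested rose with stimulation (8.98% of all tested genes). With dorsomorphin in stimulated cells 1 of 6 fell (12.4% of all). In both cases it was Slc3a2, the heavy chain of several amino acid transporters (1.90 and -1.01). With 6 genes tested, 1 call cannot be told apart from the share of all genes. Oaz3, the testis antizyme, and Slc18b1 were below the filter, and Paox was not analysed here.

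The tested genes nearest to Odc1, by the root mean square difference of their centred log2 signals over the 8 arrays, were Rsl1d1 (0.06), Timm50 (0.09), Utp6 (0.11), Heatr1 (0.11) and Dis3 (0.13), where the median over all tested genes was 1.21. Nearest to Sat1 were Arap2 (0.11), Gm38396 (0.18), Gabarapl2 (0.18), Ankrd44 (0.20) and Acot9 (0.20), beside a median of 0.85. Among the polyamine genes themselves, the closest to Odc1 was Azin1 at 0.48, and the closest to Sat1 was Smox at 0.23. The distance of Azin1 holds for the probe set used, since the other 2 did not fall with dorsomorphin in stimulated cells as it did. Distance grows with the size of a change as well as its direction, and Srm lay at 1.21 from Odc1. The pair farthest apart was Srm and Oaz2 at 2.80. These distances describe the 8 arrays, which fall into 4 groups.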

How the data were processed

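For each of 8 arrays the authors deposited a table of intensity on a linear scale, covering 45101 probe sets. RMA and affy are named, per the submitters' processing notes, without versions. RMA's log2 scale does not describe what was deposited, and every array has a mean of 500 after trimming 2% at each end, so a scaling step was applied whose nature neither labels nor notes state.

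The log2 of the deposited intensities was taken with no further normalization. Genes were named through the platform annotation (34945 probe sets with 1 symbol, 932 with several, 9160 with none and 64 controls, with 0 symbols changed by Entrez identifier). The probe set with the highest mean over 8 arrays represented each of 18193 genes. Genes that exceeded an intensity of 37.3 (log2 5.22), the 40th percentile, on 2 arrays or more were tested, which left 13983. All 8 arrays were fitted in 1 model by limma 3.58.1 in R 4.3.3, with 4 residual and 1.90 prior degrees of freedom, two-sided p-values and Benjamini-Hochberg adjustment over all tested genes. Log2 folds are differences of group means, with limma's moderated SE and 95% interval. The fit was also run on simulated data with independent noise, a check of the code that does not cover shifts of whole arrays. The number of arrays limits precision.

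The genes and lists were chosen with earlier results of these data known. All polyamine genes with a single-symbol probe set were named, with up to 4 called genes per neighbouring list and comparison, whose values in other comparisons may also be given, and the 5 genes nearest to Odc1 and to Sat1. Alternatives were other scalings, a pseudocount of 16, other filters, averaged probe sets, each probe set alone, a variance trend, fewer arrays and a replicate block.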

Additional observations from a re-analysis of the deposited data

How the results depend on the processing

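Of the log2 folds of the 7 genes, 304 of 336 kept their direction and side of the threshold when 1 array was left out, 25 of 42 when another probe set of the gene was read alone (10 changed sign and 7 lost their call), and 376 of 413 under the other settings. In the main fit only 4 folds for stimulation and 5 for dorsomorphin in stimulated cells were called. Most of the folds counted here thus had no call to lose. Median centring gave 2063, 915, 642 and 0 genes for stimulation, for dorsomorphin in unstimulated cells, for stimulated cells with dorsomorphin over control cells, and for the interaction, against 3269, 1825, 1010 and 12. It moved the median of all genes in the interaction to -0.14, against 0.35, and gave 1018 genes higher and 1045 lower with stimulation, against 1256 and 2013, and 684 and 1531 with dorsomorphin in stimulated cells, against 1358 and 1738. Smox with stimulation became 0.056 with it and 0.055 with quantile normalization, and Oaz1 with dorsomorphin in stimulated cells became -0.071. Cyclic loess gave 1600 genes higher and 1593 lower with stimulation, 1134 and 2163 with dorsomorphin in stimulated cells, and 47 for the interaction. With it Oaz1 was -0.17 with stimulation, -0.10 with dorsomorphin in unstimulated cells, -0.13 for both agents over control cells and 0.14 in the interaction. Quantile normalization gave Oaz1 -0.050 with stimulation and 0.049 in the interaction, Srm 0.010 for both agents over control cells, and 406 genes and 2 polyamine genes in the interaction. With log2(value + 16), 1663 genes passed for both agents over control cells, and 910 and 2 polyamine genes in the interaction.

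The 60th percentile filter, with fewer genes tested, gave 2968 genes for dorsomorphin in unstimulated cells, 2 for stimulation in the presence of dorsomorphin, 2075 for both agents over control cells, and 1867 with 4 polyamine genes in the interaction. With no filter the counts were 2122 for stimulation, 927, 264 and 0. Averaging all probe sets of each gene gave 1058, 505 and 3 genes for dorsomorphin in unstimulated cells, both agents over control cells and the interaction, 3 polyamine genes with dorsomorphin in stimulated cells, and Azin1 at 0.29 with dorsomorphin in unstimulated cells and 0.44 for both agents. A trend in the variance with robust fitting gave 3103, 2183 and 2036 genes, with 4 polyamine genes in the interaction. A fit of only the arrays compared, with fewer samples, gave 1668, 883 and 0 genes for stimulation, dorsomorphin in unstimulated cells and both agents, and 0 genes and 0 polyamine genes for dorsomorphin in stimulated cells.

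Read singly, 1422702_at of Azin1 gave 0.91 with dorsomorphin in unstimulated cells, -0.12 for stimulation in its presence and 0.79 for both agents, and 1430984_at gave 0.43 and 0.88 for the first and last of these and 0.029 with dorsomorphin in stimulated cells. For Oaz2, 1426764_at gave -0.0013 and 1442541_at -0.021 for both agents, with -0.11 in the interaction for the second, and 1446509_at of Smox gave -0.057 for stimulation in the presence of dorsomorphin.

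Leaving out 1 array in turn gave 0 to 4 polyamine genes and 0 to 2940 genes for stimulation, 3 to 5 and 1000 to 2648 for dorsomorphin in stimulated cells, 0 to 2 and 0 to 803 for the interaction, 0 to 1591 genes for dorsomorphin in unstimulated cells and 0 to 760 for both agents. Oaz1 ran from -0.032 to 0.049 with stimulation and from -0.20 to 0.053 in the interaction. For stimulation in the presence of dorsomorphin Odc1 ran from -0.0015 to 0.24, Srm from -0.088 to 0.95, Oaz1 from -0.19 to 0.061 and Azin1 from -0.014 to 0.28, and for both agents over control cells Srm ran from -0.69 to 0.35 and Oaz2 from -0.093 to 0.35. Where an array is left out, its partner is assumed to vary like the other groups.

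Same-numbered arrays share only a number in the labels, and their deviations from the group means correlated at 0.07 to 0.18. Replicate 2 had the lower median intensity in each group. It was 65.9 against 74.5 in control, 56.0 against 64.7 in dorsomorphin-treated and 45.4 against 66.0 in stimulated cells. In stimulated cells with dorsomorphin it was 58.7 against 72.9. Of the erythroid markers, Alas2 was brighter on replicate 2 in every group and Hba-a1 was not. With the replicate number as a block, 4 and 5 polyamine genes passed for stimulation and for dorsomorphin in stimulated cells and 0 in each other comparison, and 3997, 2317, 3640 and 1281 genes passed for stimulation, dorsomorphin in unstimulated cells, dorsomorphin in stimulated cells and both agents, with 0 in the interaction. The cause of these shifts was not tested where none is given. The second probe set of Smox and the third of Azin1, at mean log2 signals of 4.71 and 5.97, have little signal over background.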
